A study of Mus musculus with 4 samples.

Results

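Atoh1, Spdef, Gfi1, Neurog3, Neurod1, Hes1, Notch1, Dll1, Dll4 and Sox4 are genes of Notch signalling and of the choice of secretory fate in the intestine. These 10 genes were taken by symbol from a matrix of 32285 genes, and all 10 were found. The matrix holds single-cell counts from the small-intestinal epithelium of male C57BL/6J mice, which were put on diet at 8 weeks of age and killed 7 weeks later, at 15 weeks. The diet of all mice was rich in fat and was combined with l-NAME, which blocks nitric oxide synthases. The 2 control samples had no further addition and the 2 IPA samples had 562.5 mg of IPA per kg of diet, so no mouse on a standard diet is included. Each sample is a pool of 2 mice, which hides the difference between animals. Jejunum and ileum without Peyer's patches were used, and DAPI- (living) cells were sorted before droplet capture with 3′ chemistry and unique molecular identifiers (UMIs, which count captured RNA molecules).

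A number from 1 to 4 on each barcode separates 4 libraries, but nothing in the labels or headers ties a number to a sample. Libraries are therefore given by barcode number, with no diet comparison, no mean over libraries and no p-value. What follows describes the 10 genes across cell types, with each library read by itself. The libraries come from both diets and are not replicates of a condition. A difference between libraries cannot be told apart from a difference in diet.

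In the intestinal crypt, Delta-like ligands on one cell bind Notch receptors on its neighbour. Cleavage of the receptor frees an intracellular part that joins the DNA-binding protein RBPJ and turns on repressors such as Hes1. Hes1 holds Atoh1 off, and the cell stays a stem cell or becomes an absorptive enterocyte. A cell that escapes the signal keeps Atoh1, displays ligand itself and enters a secretory fate, with Spdef and Gfi1 acting towards goblet and Paneth cells and Neurog3 and Neurod1 towards hormone-producing enteroendocrine cells.

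Promoter sequence is shown for 4 members because Neurog3, Sox4 and Dll1 were high together in the rare cells described further on, while Atoh1 is the factor at the head of the secretory branch. The windows are the 250 bases before a transcription start in RefSeq annotation of GRCm38.p6 (mm10), written 5′ to 3′ on the gene's strand, with motif matches in capitals. RefSeq gave windows for 9 of the 10 members, all except Hes1, and 11 windows in all. The motifs searched on both strands were the RBPJ core TGGGAA, which reads TTCCCA on the other strand, and the E-boxes CAGCTG, its own complement, and CAGATG, which reads CATCTG on the other strand, E-boxes being the class of site that factors such as Atoh1 and Neurog3 bind. CAGCTG stood in the windows of 3 members (Neurog3, Sox4 and Dll1), TGGGAA in those of 2 (Sox4 and Spdef) and CAGATG in none. Among all 32851 windows of this length, CAGCTG was present in 13.0%, TGGGAA in 21.6% and CAGATG in 14.4%.
Neurog3, chr10:62132840-62133089, plus strand: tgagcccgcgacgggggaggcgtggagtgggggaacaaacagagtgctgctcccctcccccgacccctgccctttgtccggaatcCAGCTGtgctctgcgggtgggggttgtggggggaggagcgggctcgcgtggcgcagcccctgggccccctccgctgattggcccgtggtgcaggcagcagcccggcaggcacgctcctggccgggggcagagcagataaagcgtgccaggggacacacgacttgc
Sox4, chr13:28953700-28953949, minus strand: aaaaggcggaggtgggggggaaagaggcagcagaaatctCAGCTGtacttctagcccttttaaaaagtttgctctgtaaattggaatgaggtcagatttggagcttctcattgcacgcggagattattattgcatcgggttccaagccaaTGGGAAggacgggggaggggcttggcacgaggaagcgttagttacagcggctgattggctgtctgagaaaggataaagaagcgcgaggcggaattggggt
Dll1, chr17:15376933-15377182, minus strand: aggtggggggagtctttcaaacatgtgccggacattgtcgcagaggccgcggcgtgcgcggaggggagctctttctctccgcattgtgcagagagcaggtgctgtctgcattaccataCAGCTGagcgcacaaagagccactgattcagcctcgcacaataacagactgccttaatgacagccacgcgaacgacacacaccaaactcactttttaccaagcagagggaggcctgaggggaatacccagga
Atoh1, chr6:64728875-64729124, plus strand: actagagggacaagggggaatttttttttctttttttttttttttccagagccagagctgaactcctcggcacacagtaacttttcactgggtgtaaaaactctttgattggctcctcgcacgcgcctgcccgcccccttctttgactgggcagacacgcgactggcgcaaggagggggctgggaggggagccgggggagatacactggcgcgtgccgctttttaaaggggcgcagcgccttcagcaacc
In Neurog3 the CAGCTG lies 165 bases before the start, in Dll1 132 bases and in Sox4 211 bases, where TGGGAA lies 100 bases before the start. A match of letters is a description of the window and says nothing of binding.

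Of 44277 barcodes, 25788 were kept, between 6174 and 7122 in a library, with a median depth per library of 22601 to 27622 UMIs. Barcode sequences shared between libraries numbered 75 and covered 0.582% of the kept cells. Cells were sorted into gates by the share of their UMIs in marker genes, none of them a member of the 10. The stem gate held 592 cells, the cycling gate 1334, the goblet gate 910, the Paneth gate 151, the enteroendocrine gate 236, the tuft gate 56, the enterocyte gate 18464 and the immune gate 2018. Another 2010 cells met no gate and 17 met several, and 425 cells that passed both the stem and the cycling limit count as cycling. Cells within 2-fold above their limit numbered 116 in the stem, 419 in the cycling, 86 in the goblet, 29 in the Paneth, 18 in the enteroendocrine, 9 in the tuft, 1305 in the enterocyte and 193 in the immune gate. The goblet gate had a median of 3662 goblet-marker UMIs per 10000 and the enteroendocrine gate 1269 enteroendocrine-marker UMIs, against 2.30 and 0.38 in the enterocyte gate. The immune gate held 479, 12, 1510 and 17 cells in libraries 1 to 4, and its enterocyte-marker share of 76.7 per 10000 is taken here as the level of free RNA. The Paneth gate had at least 20 cells in libraries 2 and 3 only and the tuft gate in library 1 only, and 44 of the 151 Paneth-gate barcodes were under 1000 UMIs. Median depth ranged from 3935 UMIs in the immune gate and 10346 in the tuft gate to 68123 in the Paneth gate. Levels below are UMIs per 1000000 UMIs of the gate (CPM) in one library, and intervals are exact 95% Poisson intervals that cover counting error only.

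The 7 gates other than the immune one were ranked in each library where they held 20 cells or more. Paneth cells were thus ranked in libraries 2 and 3 only and tuft cells in library 1 only. For 9 of the 10 members the same gate came first in all 4 libraries. Goblet cells led for Atoh1, Spdef, Gfi1 and Dll1, enteroendocrine cells for Neurog3, Neurod1 and Sox4, and stem cells for Hes1 and Notch1. The exception was Dll4, for which enteroendocrine cells led in 3 libraries and goblet cells in 1. With immune cells included, goblet cells did not come first for Gfi1, which immune cells held at 21.6 and 39.98 CPM in libraries 1 and 3 against 16.9 and 19.5 CPM in goblet cells.

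**Figure D1:**
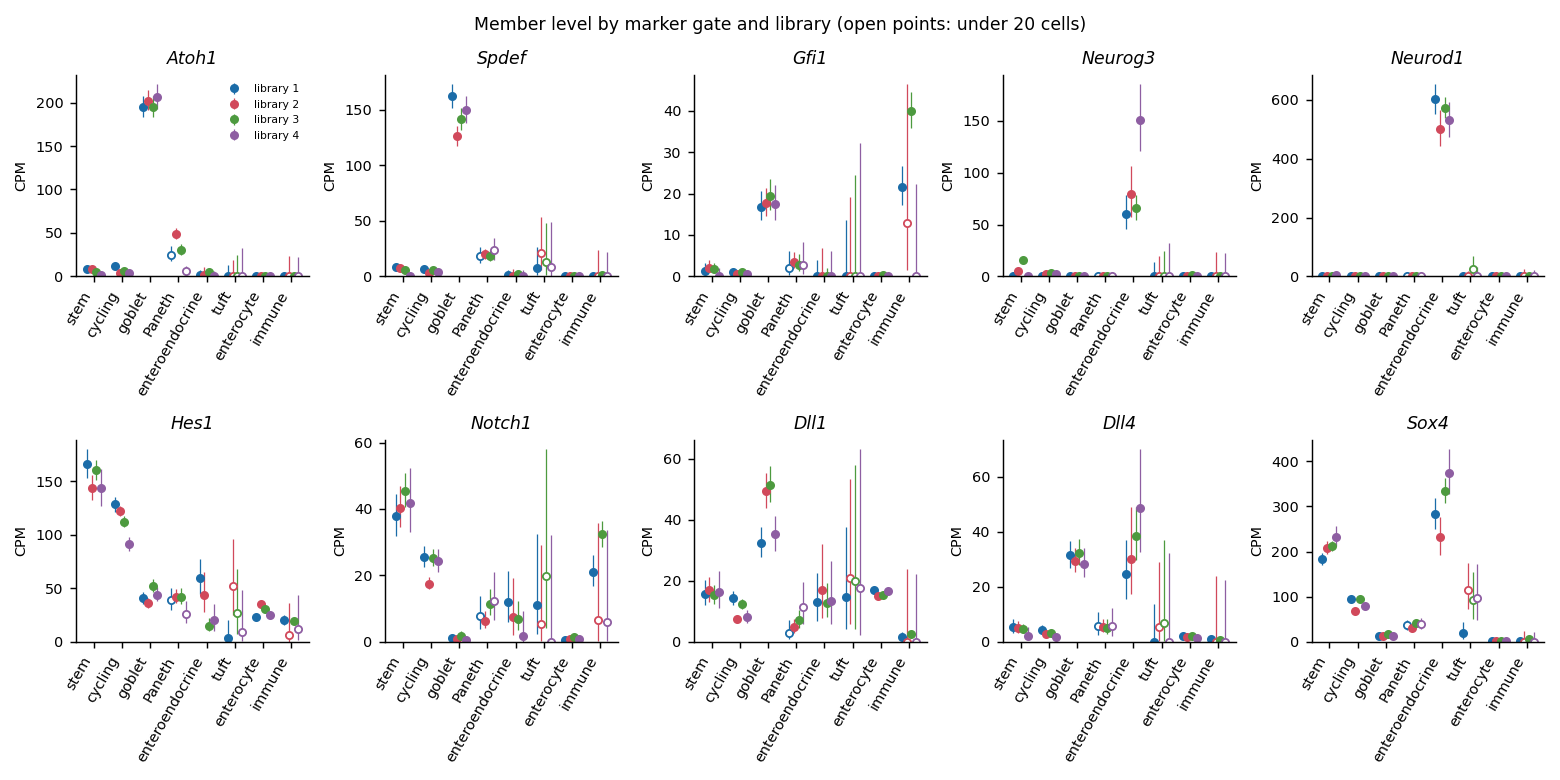
Level of each of the 10 genes in CPM (linear axes from 0) in 8 marker gates, with libraries 1 to 4 in colour, exact 95% Poisson intervals as bars and open points where a gate held under 20 cells. Atoh1 and Spdef stand apart in the goblet gate, Neurod1 in the enteroendocrine gate and Hes1 and Notch1 in the stem and cycling gates, while Gfi1 and Notch1 also reach the immune gate.

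Atoh1, the basic helix-loop-helix factor required for all secretory lineages, was at 195, 202, 195 and 207 CPM in goblet cells of libraries 1 to 4. In enterocytes it was at 0.343, 0.342, 0.833 and 0.271 CPM, and in stem cells at 8.70, 8.54, 5.39 and 2.12 CPM. The 4 goblet intervals overlapped one another, and no enterocyte or stem value came near them. On the scale of log2(CPM + 1), the goblet to enterocyte ratio corresponded to 149-fold at the median, with a range of 107 to 164 over libraries. Paneth cells carried 49.0 and 30.7 CPM of Atoh1 in libraries 2 and 3, below goblet cells of the same libraries and 25.4-fold above enterocytes at the median.

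Because cells differ in depth, each cell was also thinned to 5000 UMIs, leaving shallower cells out. An Atoh1 UMI was then found in 60.4%, 60.2%, 60.9% and 59.4% of goblet cells, from 165 to 264 cells a library, with exact Clopper-Pearson 95% intervals that together span 51.5% to 67.6%. The share was 0.159%, 0.218%, 0.442% and 0.0976% in enterocytes, which serve as the free-RNA level. Without thinning the goblet shares were 90.9%, 80.1%, 89.6% and 93.3%.

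Spdef, an ETS-family factor of goblet and Paneth cell maturation, followed Atoh1. It was at 162, 126, 142 and 150 CPM in goblet cells and at most 0.581 CPM in enterocytes of any library. Library 2 was the lowest for Spdef, with an interval of 117 to 135 CPM that did not meet the 152 to 173 CPM of library 1, although it was not the lowest for Atoh1. Paneth cells held 20.0 and 18.7 CPM in libraries 2 and 3, again between goblet cells and enterocytes. Both Atoh1 and Spdef were detected, at full depth, in 183 of 208 goblet cells of library 1, 223 of 302 of library 2, 185 of 222 of library 3 and 156 of 178 of library 4.

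Gfi1, a zinc-finger repressor that acts downstream of Atoh1 and favours goblet and Paneth over enteroendocrine fate, was at 16.9, 17.7, 19.5 and 17.5 CPM in goblet cells. No Gfi1 UMI was counted in the enteroendocrine gate of any library, where a count of 0 allows up to 3.23, 5.65, 1.74 and 5.03 CPM. Gfi1 was thus present in one secretory branch and not detectable at this depth in the other. Immune cells also carried it, at 21.6 CPM in library 1 and 39.98 CPM in library 3, the libraries with most immune cells. The median immune-marker share of the goblet gate was 0 in libraries 1, 2 and 4 and 0.383 per 10000 in library 3, and its part in the Gfi1 level was not tested.

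The goblet levels depend on what is counted in the total, since mucus genes fill much of these cells. With mitochondrial and marker genes left out of the total, the median over libraries was 335 CPM for Atoh1, 235 for Spdef, 29.7 for Gfi1 and 69.9 for Dll1, against 199, 146, 17.6 and 42.3 CPM with all genes. Cells with high doublet scores were more frequent among goblet cells, 14.7% of which were in the top 6% of scores. Leaving these out gave 235 CPM for Atoh1 and 178 CPM for Spdef.

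Neurog3, the factor that starts enteroendocrine differentiation and is known for a short burst of expression, was at 60.2, 79.1, 65.6 and 151 CPM in the enteroendocrine gate. Goblet cells held no Neurog3 UMI in any of the 4 libraries, which allows at most 0.556, 0.492, 0.532 and 0.728 CPM. The high value of library 4 came from 4 cells with 90 UMIs, 56 of them in 1 cell. After thinning, a Neurog3 UMI was seen in 8.16%, 16.1%, 7.14% and 8.33% of enteroendocrine cells (intervals spanning 1.75% to 33.7%), so most of the cells in this gate had none.

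Neurod1, a basic helix-loop-helix factor that acts after Neurog3 and persists in hormone-producing cells, was at 601, 501, 572 and 530 CPM in the enteroendocrine gate. In goblet cells 1 UMI was counted over all libraries, and enterocytes were at 0.658 CPM or lower. Its share among thinned enteroendocrine cells was 83.7%, 87.1%, 79.6% and 83.3% (intervals spanning 67.2% to 96.4%), far above that of Neurog3 in the same cells. Neurod1 was thus carried by the bulk of the gate, while Neurog3 was carried by a few cells with many molecules.

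Hes1, the Notch target that represses Atoh1, was highest in stem cells at 166, 144, 160 and 143 CPM. It was at 128, 122, 112 and 91.2 CPM in cycling cells, and in each library the stem value was the higher one. In goblet cells it was at 40.4, 36.0, 52.3 and 43.9 CPM and in enterocytes at 23.3, 35.6, 30.8 and 24.6 CPM. Hes1 was therefore lower in goblet cells than in stem cells but not absent from them. The log2 ratio of goblet to stem cells was -1.82 at the median and lay between -2.01 and -1.60. Enteroendocrine cells varied more, from 59.1 and 43.3 CPM in libraries 1 and 2 to 15.1 and 20.1 CPM in libraries 3 and 4.

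At full depth, Hes1 and Atoh1 were found together in many single goblet cells. Both had a UMI in 99 of 208, 114 of 302, 107 of 222 and 83 of 178 goblet cells of libraries 1 to 4. Since Atoh1 alone was found in 80.1% to 93.3% of goblet cells, most cells with any other transcript hold it too. Overlap beyond these detection rates was not tested. Thinned to equal depth, Hes1 was seen in 17.8%, 15.2%, 22.2% and 16.4% of goblet cells and in 8.94%, 13.8%, 12.5% and 10.5% of enterocytes. The intervals of goblet cells and enterocytes met in libraries 2 and 4. Stem cells showed Hes1 in 42.0%, 42.5%, 44.8% and 44.2% (intervals spanning 32.7% to 55.9%). Immune cells of libraries 1 and 3 also held it, in 10.1% and 5.74% of the cells deep enough to thin.

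Notch1, a receptor of the pathway, was at 37.8, 40.3, 45.5 and 41.9 CPM in stem cells and at 25.6, 17.5, 25.3 and 24.3 CPM in cycling cells. In goblet cells it was between 0.485 and 1.77 CPM and in enterocytes between 0.653 and 1.34 CPM. No goblet cell had a Notch1 UMI after thinning, out of 165 to 264 cells a library, against 15.2%, 19.5%, 18.0% and 18.2% of stem cells (intervals spanning 9.10% to 28.6%). The counts of 0 allow up to 1.52%, 1.14%, 1.45% and 1.82%. Notch1 in goblet cells thus stood at the enterocyte level. Immune cells had 21.1 and 32.4 CPM in libraries 1 and 3, and their part in the stem value was not tested. Immune markers were at a median of 0 in the stem gate of libraries 1, 2 and 4 and at 0.331 UMIs per 10000 in that of library 3, where the goblet gate had 0.383 and held Notch1 at 1.77 CPM.

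The ligands had patterns of their own. Dll1, a Delta-like ligand, was at 32.4, 49.3, 51.4 and 35.2 CPM in goblet cells, which fell into a lower set of libraries (1 and 4) and a higher one (2 and 3) with intervals that did not meet. Stem cells held 15.8, 16.8, 15.3 and 16.5 CPM and enterocytes 17.0, 14.9, 15.4 and 16.5 CPM, so their ranges overlapped fully. Dll1 was thus as high in enterocytes as in stem cells. The enterocyte signal was above free RNA by the measure available here, since after thinning it was found in 9.51%, 7.34%, 8.08% and 7.96% of enterocytes (intervals spanning 6.60% to 10.4%) but in 0 of 188 and 0.957% of immune cells of libraries 1 and 3. The count of 0 allows up to 1.60% of cells, and the interval in library 3 ran from 0.261% to 2.43%.

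Dll4, the second Delta-like ligand among the members, was at 31.3, 29.5, 32.3 and 28.4 CPM in goblet cells and at 24.7, 30.1, 38.3 and 48.6 CPM in enteroendocrine cells. These ranges overlap, and the 2 cell types cannot be ordered. Enterocytes held 1.51 to 2.24 CPM and stem cells 2.12 to 5.16 CPM. Dll4 was therefore several-fold higher in both secretory types than in enterocytes, while Dll1 in enteroendocrine cells, at 12.9, 17.0, 12.8 and 13.4 CPM, was below enterocytes in 3 libraries and above them in library 2, with a median ratio of 0.83.

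Sox4, an SRY-box factor of progenitor cells that acts in enteroendocrine and tuft differentiation, was at 283, 232, 335 and 374 CPM in enteroendocrine cells and at 183, 208, 211 and 233 CPM in stem cells. The enteroendocrine value was the higher one in each library, but the lowest enteroendocrine value, 232, lay under the highest stem value, 233. Cycling cells held 94.5, 67.3, 94.4 and 78.9 CPM, goblet cells 11.7 to 17.9 CPM and enterocytes 0.797 to 1.83 CPM. Sox4 was thus lower in goblet cells than in the stem and cycling gates, whereas Atoh1 had the reverse order.

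Members were then counted as called when they differed at least 2-fold in the same direction in every library with 20 cells or more, on the log2(CPM + 1) scale, beside the same count over 15135 genes with 50 UMIs or more. Against enterocytes, 5 of 10 members were higher in goblet cells (Atoh1, Spdef, Gfi1, Dll4 and Sox4), where 6.76% of all genes were. In enteroendocrine cells 4 were higher (Neurod1, Sox4, Neurog3 and Dll4) against a background of 21.9%, and in stem cells 4 were higher (Sox4, Notch1, Hes1 and Atoh1) against 22%. In cycling cells 5 were higher (those of the stem gate and Spdef) against 22.3%. None was lower than in enterocytes in these 4 gates, where 8.11% of genes were lower in goblet, 4.75% in enteroendocrine, 8.11% in stem and 7.6% in cycling cells. For higher calls the background was thus lowest in the goblet comparison, and for lower calls in the enteroendocrine one.

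Between secretory cells and stem cells, some members were higher and others lower. Atoh1, Spdef, Gfi1 and Dll4 were higher in goblet than in stem cells, where 5% of all genes were, and Hes1, Sox4 and Notch1 were lower, as were 17% of genes. In enteroendocrine cells, Neurog3, Neurod1 and Dll4 were higher than in stem cells (9.9% of genes) and Hes1 and Notch1 were lower (3.46%). Hes1 and Notch1 were thus lower, and Dll4 higher, in both secretory types. Set directly against each other, goblet cells had more Atoh1, Spdef, Gfi1 and Dll1 than enteroendocrine cells (2% of genes) and less Neurog3, Neurod1 and Sox4 (15.3%). No member differed 2-fold between stem and cycling cells in every library, where 0.456% of genes were higher and 1.45% lower in stem cells.

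Paneth and tuft cells were covered thinly. In Paneth cells of libraries 2 and 3, Atoh1, Sox4, Spdef, Notch1 and Gfi1 were above enterocytes (5.28% of genes) and Dll1 was below, at 4.72 and 6.97 CPM (33.3% of genes). Against stem cells, Atoh1 and Spdef were higher (1.08%) and Neurog3, Hes1, Sox4, Dll1 and Notch1 were lower, in a comparison where 51.7% of all genes were lower. The Neurog3 call rests on few stem cells, with 22 UMIs in 2 cells of library 2 and 104 UMIs in 5 cells of library 3. Stem cells of libraries 1 and 4, which are not in this comparison, held no Neurog3 UMI. In the 21 tuft cells of library 1, Sox4, Notch1 and Spdef were higher than in enterocytes (24.8% of genes) and Hes1 and Dll4 lower (19.2%). These tuft values rest on few molecules, with 5 UMIs for Sox4, 3 for Notch1, 2 for Spdef, 1 for Hes1 and 0 for Dll4. Over all 4 libraries no Atoh1 UMI was seen in any of the 56 tuft cells, which for library 1 allows up to 11.1 CPM.

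The rest of the pathway was read in lists by role. Of 15 secretory factors, 13 were higher in goblet cells than in enterocytes, as were 6.76% of all genes, with a list median log2 ratio of 3.28 against -0.02 over all genes. The 4 with the highest ratios were Foxa3, Atoh1, Spdef and Creb3l4. Foxa3, a forkhead factor, was at 234, 207, 195 and 227 CPM in goblet cells and below 1 CPM in enterocytes. Creb3l4, a membrane-bound bZIP factor, was at 60.6, 74.5, 74.0 and 72.1 CPM. In Paneth cells 11 of the 15 were higher (5.28% of all genes) and Klf4 was lower (33.3%), with a list median of 3.23 against -0.57.

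All 17 enteroendocrine factors listed were higher in enteroendocrine cells, as were 21.9% of all genes, with a list median of 6.44 against 0.50 over all genes, and none of them was higher in goblet cells. The highest ratios were those of Neurod1, Insm1, Isl1 and Pax6, transcription factors of hormone-producing cells. Insm1 was at 402, 339, 360 and 458 CPM in the gate and at 0.460 CPM or lower in enterocytes. Isl1 was at 388, 343, 373 and 297 CPM.

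Of 4 Notch receptors listed, 3 had counts enough to compare, and Notch1 and Notch2 were higher in stem, cycling and Paneth cells, where 22%, 22.3% and 5.28% of all genes were. Notch2 was at 6.80, 8.07, 7.79 and 7.43 CPM in stem cells and at 0.548 CPM or lower in enterocytes. Ligand and receptor processing was a list of 17 genes. Of these, 2 were higher than in enterocytes in stem, 2 in cycling, 2 in goblet and 1 in Paneth cells. In enteroendocrine cells 5 were higher and in tuft cells 7. The shares of all genes, in the same order, were 22%, 22.3%, 6.76%, 5.28%, 21.9% and 24.8%. Paneth cells had 9 lower (33.3% of all genes), and each other gate had 1, Numb. The shares of genes lower in those gates were 8.11% in stem, 7.6% in cycling, 8.11% in goblet, 4.75% in enteroendocrine and 19.2% in tuft. Lfng, the glycosyltransferase Lunatic fringe that modifies Notch, was higher in all 6 gates. Lower in all 6 was Numb, an endocytic antagonist of Notch. Numb was at 69.6, 57.4, 66.5 and 62.2 CPM in enterocytes and at 21.2, 20.2, 22.9 and 17.0 CPM in stem cells.

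Of 10 targets and antagonists that could be compared, 4 were higher in stem cells, namely Dtx4, Hes1, Nrarp and Hes6, as were 22% of all genes. The list median of 0.44 lay close to the 0.28 of all genes. Nrarp, a feedback inhibitor of Notch, was at 27.5, 32.3, 28.3 and 31.9 CPM in stem cells and at 7.86, 9.93, 6.33 and 12.3 CPM in enterocytes. In goblet cells Id3 was the only one of the 10 that was higher, against 6.76% of all genes. Among ligands, Jag2 joined Dll4 in enteroendocrine cells, at 16.1, 9.42, 26.1 and 15.1 CPM, and Jag1 was higher in cycling cells, at 9.11, 9.51, 8.36 and 8.93 CPM against 2.46 to 3.40 CPM in enterocytes.

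The genes most like Atoh1, Neurog3, Hes1, Sox4 and Dll1 were sought, and not those like the other 5 members, by Pearson's r of log2(CPM + 1) over 23 points, each a gate in a library, across 12406 genes. Points of one library share depth and free RNA, and r is a description. Atoh1 was followed most closely by Cracr2a, Gfi1, Ern2 and Rap1gapos (r = 0.96 each) and Chrm1 (0.95). Gfi1 was the only member among the 5 closest genes of any of these 5. Neurog3 was most like Nek5 and Insm1 (0.95), Gpr22 and Gm37233 (0.94) and Nme9 (0.93). Hes1 was most like Mbnl3 (0.94), Myorg and Mms22l (0.93), Ccnd1 and 1110038B12Rik (0.92), and Sox4 like Bcor, Zc3h7b and Tspan12 (0.98), Adi1 and Rassf4 (0.97). The closest genes of Dll1 were Rnh1 at 0.90, Nfkb2 at 0.89, and Tmsb10, Guk1 and Cmpk1 at 0.88.

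The absorptive side was followed by grouping cells of the enterocyte gate and ungated cells by their enterocyte-marker share, from 75 to 150 up to at least 1200 UMIs per 10000. Hes1 was at 79.3, 122, 77.8 and 80.7 CPM in the lowest range and at 16.7, 23.0, 22.8 and 20.1 CPM in the highest. Its medians over libraries were 80.0, 84.9, 68.0, 37.7 and 21.5 CPM along the 5 ranges. Dll1 took the opposite course, from 4.87, 4.21, 4.92 and 3.15 CPM in the lowest range to 18.3, 17.6, 16.6 and 18.4 CPM in the highest, with medians of 4.54, 6.65, 7.80, 13.8 and 17.9 CPM. The highest-range and lowest-range values did not overlap for either gene, and the log2 ratio was -2.13 for Hes1 and 1.98 for Dll1 at the median of libraries. The markers themselves fill part of the total, but with mitochondrial and marker genes left out Hes1 still stood at 22.9 to 32.0 CPM in the highest range against 87.7 to 136 CPM in the lowest, and Dll1 at 23.3 to 25.6 against 3.49 to 5.55 CPM. Sox4 and Notch1 were already low in the lowest range, with Sox4 at 7.37 to 16.9 CPM and Notch1 at 2.28 to 9.83 CPM.

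**Figure D2:**
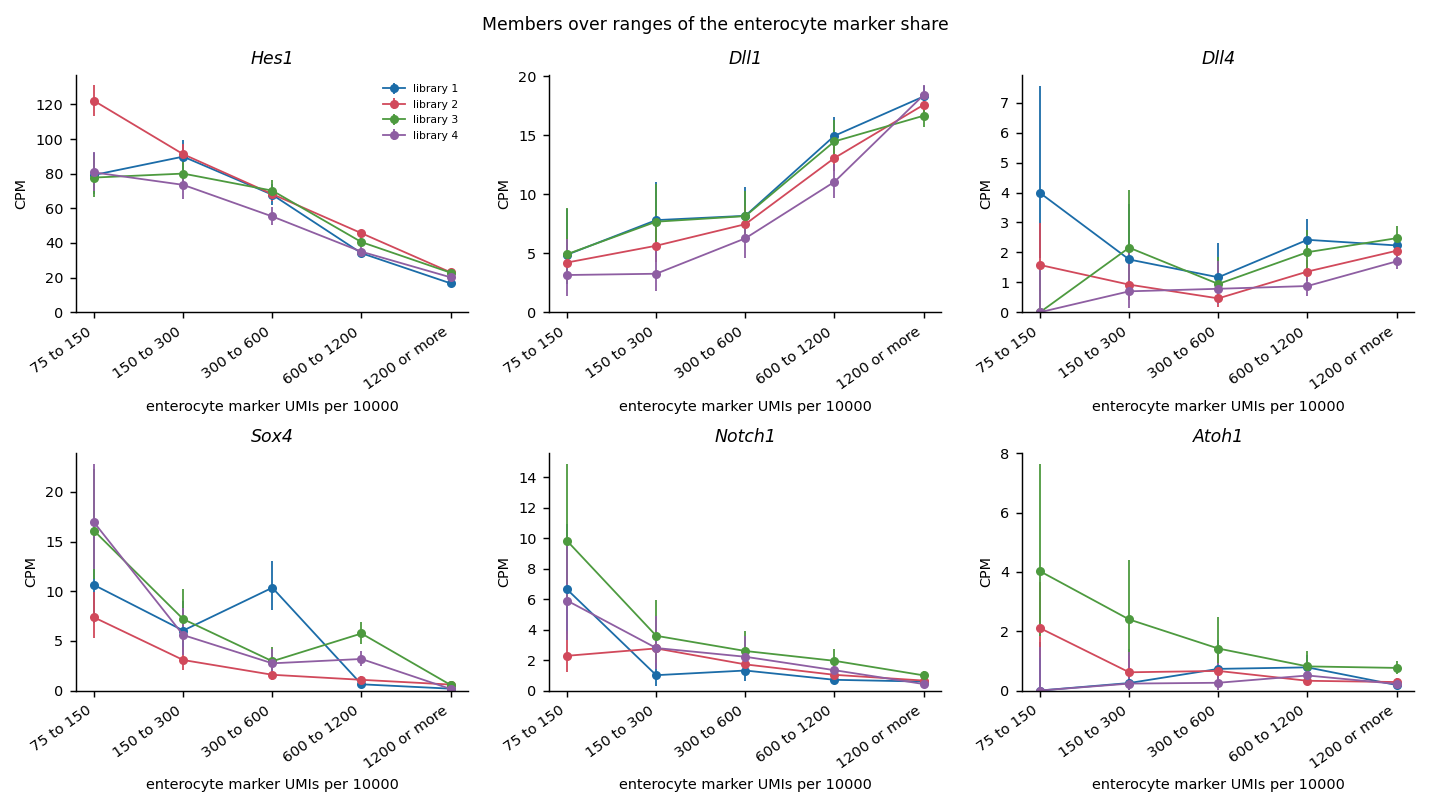
Level of 6 members in CPM (linear axes from 0) over 5 ranges of the enterocyte-marker share, for cells of the enterocyte gate and ungated cells, with 1 line per library and exact 95% Poisson intervals. Hes1 goes from 77.8 to 122 CPM in the lowest range to 16.7 to 23.0 CPM in the highest, while Dll1 goes from 3.15 to 4.92 CPM to 16.6 to 18.4 CPM.

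Cells with few enterocyte and Paneth markers were grouped in the same way by their goblet-marker share. Atoh1 was at 0.789, 0.743, 0.970 and 0.467 CPM below 20 markers per 10000 and at 228, 252, 283 and 235 CPM at 4000 or more. It was already at 127, 96.0 and 90.7 CPM in libraries 1 to 3 at 100 to 500 markers per 10000, below the limit of the goblet gate. Library 4 had under 20 cells in the ranges of 20 to 100 and 100 to 500 and is not read there.

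Dll1 was highest in the middle of these ranges. Its medians over libraries were 5.55, 49.6, 98.0, 82.4, 60.7 and 19.2 CPM along the 6 ranges. In the range of 500 to 2000 it was at 86.9, 91.1, 77.9 and 69.5 CPM, and at 4000 or more at 14.2, 22.3, 31.8 and 16.0 CPM, with no overlap between these ranges. Mucus transcripts dilute other genes at the top, and with marker and mitochondrial genes left out of the total the values were 110, 113, 94.6 and 85.4 CPM at 500 to 2000 and 31.7, 46.4, 67.5 and 34.0 CPM at 4000 or more. The drop in Dll1 was present in each library by either total.

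Hes1 differed from Dll1 in this respect. By all UMIs, Hes1 was at 118, 118, 115 and 92.0 CPM in the lowest range and at 36.0, 31.4, 39.9 and 35.5 CPM in the highest. With marker and mitochondrial genes left out it was at 132, 131, 128 and 102 CPM in the lowest range, 85.0, 56.9, 93.7 and 81.3 CPM at 500 to 2000 and 80.3, 65.2, 84.7 and 75.6 CPM at 4000 or more. The step from the lowest range to goblet cells held by either total, while the decline among goblet cells did not. Sox4 peaked at 20 to 100 goblet markers per 10000, at 270, 305 and 586 CPM in libraries 1 to 3. That range also held Neurog3 at 165, 20.7 and 183 CPM in these libraries, and median depth there was 1945 and 1801 UMIs in libraries 1 and 2. The rare cells with Neurog3 described further on had high Sox4 too. Their part in the Sox4 level of this range was not tested.

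**Figure D3:**
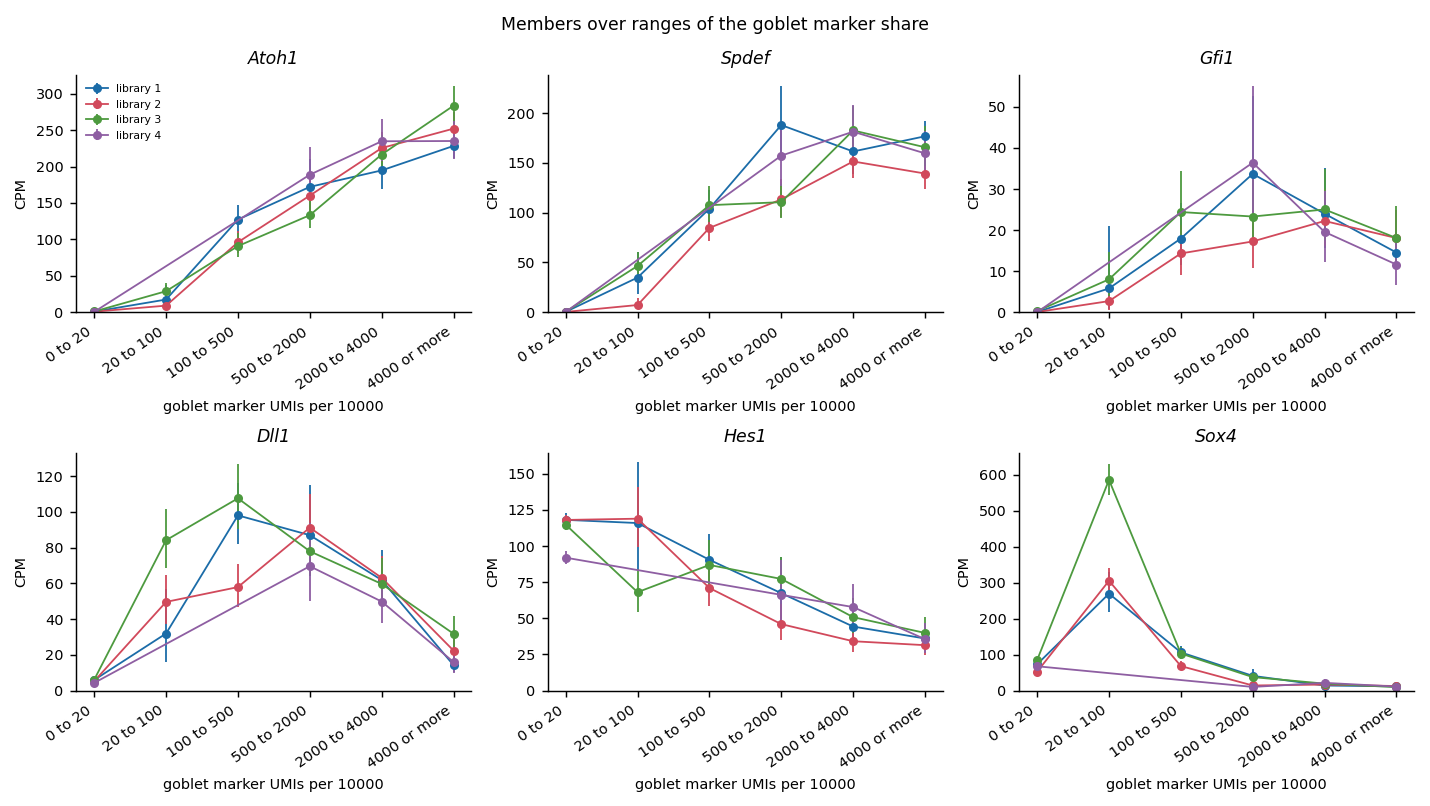
Level of 6 members in CPM (linear axes from 0) over 6 ranges of the goblet-marker share, with 1 line per library, exact 95% Poisson intervals and ranges of under 20 cells left out, which removes the ranges 20 to 100 and 100 to 500 of library 4. Atoh1 reaches 228 to 283 CPM in the highest range, while Dll1 is at 69.5 to 91.1 CPM at 500 to 2000 markers per 10000 and at 14.2 to 31.8 CPM in the highest range.

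A small set of goblet cells passed the cycling limit too, 21 of 910. Their Atoh1 was at 136 CPM (interval 115 to 160), against 203 CPM (197 to 209) in the other 889 goblet cells, and Spdef was at 74.1 against 148 CPM. Hes1 was higher in them, at 75.1 against 41.3 CPM, as was Notch1, at 4.69 against 0.891 CPM. These sums pool the 4 libraries and are over all UMIs, and levels with marker genes left out of the total were not computed. The 21 cells had a median of 53470 UMIs against 22577. The part of depth and of the goblet-marker share in these differences was not tested.

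Within the crypt itself, cells of the stem and cycling gates with at least 2 Atoh1 UMIs were compared with those with none. They numbered 23, 22, 21 and 8 in libraries 1 to 4, against 311, 710, 495 and 276 without Atoh1. Dll1 was at 81.3, 70.8, 65.5 and 80.9 CPM in the cells with Atoh1 and at 7.10, 6.31, 7.30 and 7.12 CPM in those without. Dll4 was at 29.9, 29.6, 23.1 and 27.9 CPM with Atoh1 and at 1.80, 1.69, 1.69 and 0.877 CPM without. Dll1 was thus about an order of magnitude apart between the groups in every library, and Dll4 by more than that. On the scale of log2(CPM + 1), the median log2 ratios were 3.31 for Dll1 and 3.49 for Dll4. The added 1 lowers the ratio of Dll4, which was at 0.877 to 1.80 CPM without Atoh1.

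Spdef and Gfi1 followed, with Spdef at 63.9, 83.5, 63.7 and 75.3 CPM with Atoh1 and 0.844 CPM or lower without. Gfi1 was at 11.1, 13.7, 11.9 and 11.2 CPM with Atoh1 and 0.496 CPM or lower without. Hes1 was at 91.7, 88.8, 132 and 103 CPM with Atoh1 and 145, 127, 125 and 101 CPM without, lower beyond the intervals in libraries 1 and 2 alone. Notch1 was at 23.6, 16.9, 33.7 and 22.3 CPM with Atoh1 and 29.5, 21.7, 31.0 and 27.5 CPM without, and Sox4 at 115, 129, 129 and 165 against 118, 83.2, 117 and 106 CPM, higher beyond the intervals in libraries 2 and 4. Cells with Atoh1 thus had ligand, Spdef and Gfi1 and also held Hes1, Notch1 and Sox4. Among the latter, only Notch1 had intervals that met between the groups in every library.

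These cells also carried goblet markers, at a median of 161, 188, 99.4 and 159 per 10000 against 2.66, 2.33, 3.44 and 1.93 in cells without Atoh1. They were deeper, with medians of 40040 to 65210 UMIs in a library against 29297 to 37607. Of the 74 cells, 18 were in the top 6% of doublet scores. With those cells left out the log2 ratios were 3.45 for Dll1, 3.76 for Dll4 and 5.67 for Spdef.

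**Figure D4:**
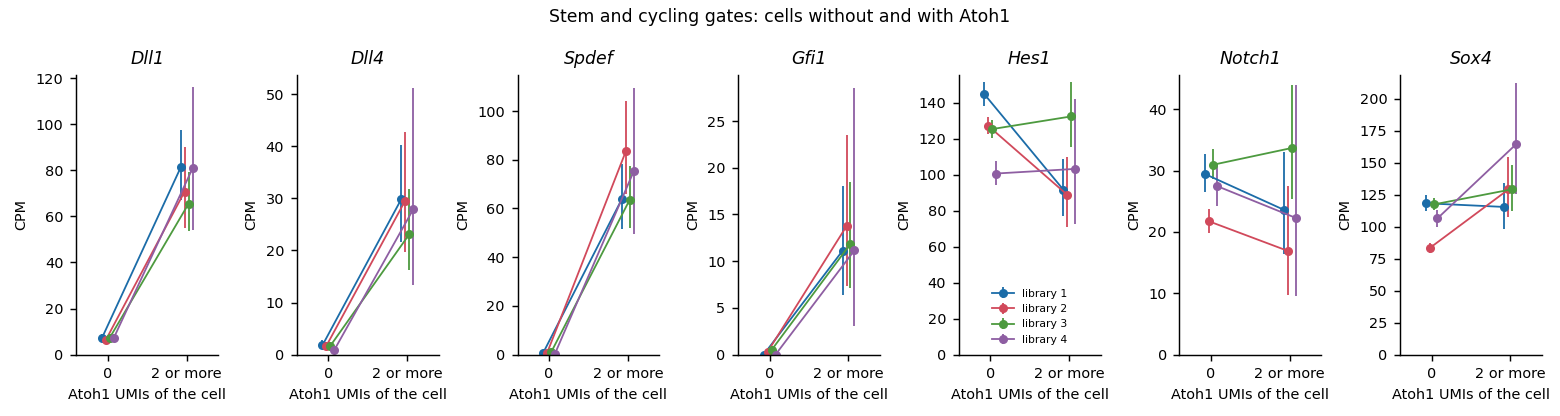
Level of 7 members in CPM (linear axes from 0) in stem-gate and cycling-gate cells with 0 and with at least 2 Atoh1 UMIs, with 1 line per library and exact 95% Poisson intervals. Dll1 goes from 6.31 to 7.30 CPM to 65.5 to 81.3 CPM and Dll4, Spdef and Gfi1 go the same way. The ranges of Hes1, Notch1 and Sox4 over libraries overlap between the groups. Within libraries 1 and 2 Hes1 is lower with Atoh1, and within libraries 2 and 4 Sox4 is higher, both beyond the intervals.

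Neurog3 molecules were concentrated in few cells. Among all 25788 cells, 70 had a Neurog3 UMI, and the 47 cells with at least 3 held 975 of the 1004 Neurog3 UMIs. Of these 47, 19 were in the enteroendocrine gate, 12 were ungated, 6 cycling, 5 stem and 5 enterocyte cells. The 28 cells outside the enteroendocrine gate numbered 3, 7, 13 and 5 in libraries 1 to 4, and 15 remain when library 3 is left out. Of the 5 in the enterocyte gate, 4 were in the top 6% of doublet scores, and no other of the 28 was. With the top scores left out, 24 cells outside the enteroendocrine gate remained.

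Outside the enteroendocrine gate, these cells had very high Sox4, at 3283, 1686, 1783 and 779 CPM in libraries 1 to 4 and 1599 CPM (1513 to 1689) pooled. Stem and cycling cells without Neurog3 had 102 CPM, and enteroendocrine cells with Neurog3 had 526 CPM (450 to 612). All 28 cells held Sox4. Dll1 was at 153 CPM (128 to 183) in them, with 325, 117, 209 and 47.9 CPM by library, against 10.2 CPM in stem and cycling cells without Neurog3 and 24.8 CPM (10.7 to 48.8) in enteroendocrine cells with it. By library, the enteroendocrine cells with Neurog3 held 580, 691 and 804 CPM of Sox4 and 41.5, 19.7 and 44.7 CPM of Dll1 in libraries 2 to 4. Both genes were therefore higher in the Neurog3 cells outside the gate in libraries 2 and 3, but not clearly so in library 4. In library 4, 2 of the cells outside the gate were of the enterocyte gate. Library 1 had only 2 enteroendocrine cells with Neurog3.

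Enteroendocrine markers were at a median of 1.03 per 10000 UMIs in the 28 cells, 482 in the 19 enteroendocrine cells with Neurog3 and 1541 in the 212 enteroendocrine cells without it. Pooled over libraries, Neurod1 was at 134, 595 and 556 CPM along the same order. It was present in 14 of the 28, some of them of the enterocyte gate, and in all 19. By library, enteroendocrine cells with Neurog3 held 394, 770 and 893 CPM of Neurod1 in libraries 2 to 4. Those without Neurog3 held 525, 559 and 500 CPM there, so the order differed between libraries. The levels that follow are pooled in the same way. Dll4 was at 26.0, 58.8 and 31.9 CPM. Insm1, a zinc-finger factor of endocrine cells, was at 428, 777 and 338 CPM, and Fev, an ETS factor of serotonin cells, at 38.4, 591 and 171 CPM. Fev in the 28 came from 4 cells, with none in libraries 1 and 2. Pax4, an early endocrine factor, was at 71.8, 65.0 and 22.2 CPM. The groups were formed by Neurog3 and by the hormone markers, so Chga and the like are not read as results, whereas Sox4, Dll1, Neurod1 and Dll4 were not used.

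Atoh1 was at 9.90 CPM (4.27 to 19.5) in the 28 cells, found in 5 of them, and in none of the 19 enteroendocrine cells with Neurog3, where a count of 0 allows up to 9.29 CPM. Stem and cycling cells without Neurog3 held 6.11 CPM (5.55 to 6.72), which lies within the interval of the 28 cells and under the limit for the 19, so no difference in Atoh1 could be seen at this depth. Hes1 was at 47.0 CPM (33.3 to 64.6) in the 28, against 125 CPM in stem and cycling cells without Neurog3.

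**Figure D5:**
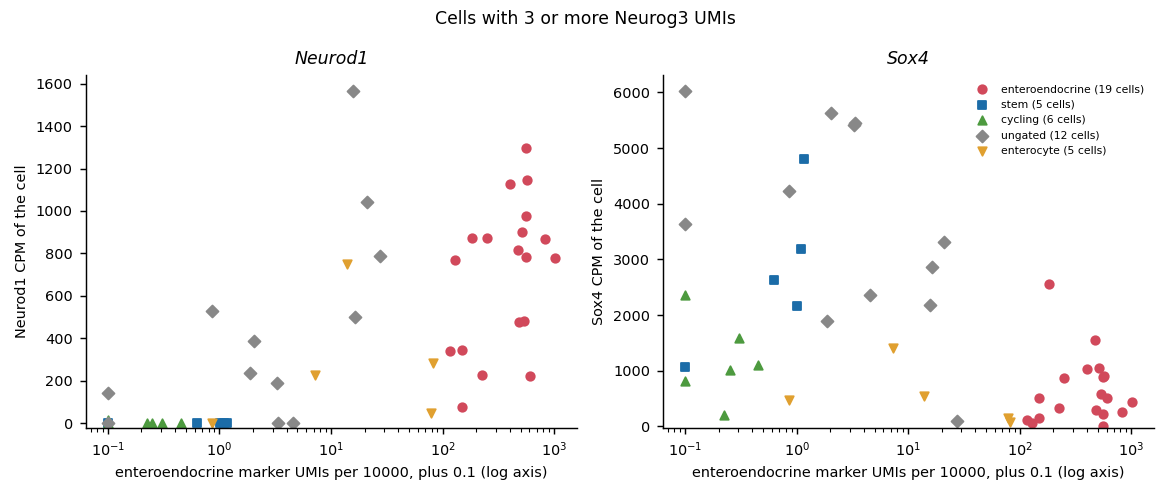
Neurod1 and Sox4 level in CPM (linear axes) of each of the 47 cells with at least 3 Neurog3 UMIs, against the cell's enteroendocrine-marker share plus 0.1 (log axis), coloured by gate. Sox4 reaches its highest values in cells with few enteroendocrine markers, and Neurod1 is present in all 19 cells of the enteroendocrine gate.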

How the data were processed

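The authors deposited 1 matrix of raw UMI counts, whole numbers with no scaling, per the file headers and the values in it. Cell Ranger 6.1.1 and mm10 are named in the submitters' processing notes. The annotation and any filter on barcodes were not given in these sources. Cells are from 4 samples, but their libraries could not be tied to samples, so the planned edgeR test of diet was not run and the groups by label serve as description alone.

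A barcode was kept from 500 UMIs and 250 genes on if no more than 25% of its UMIs were mitochondrial. Gates used marker UMIs per 10000 UMIs of the cell, with limits of 15 (stem), 10 (cycling), 500 (goblet), 1500 (Paneth), 100 (enteroendocrine), 60 (tuft), 300 (enterocyte) and 40 (immune) and a minimum number of detected markers, set after seeing the data. A cell that passed several secretory or immune limits was left out. UMIs were summed per gate and library and divided by the gate total to give CPM. Doublets were scored per library with Scrublet in scanpy 1.11.5, whose automatic threshold marked 5, 2, 149 and 1 cells and so has not worked in 3 libraries. Doublets were therefore kept, and leaving out the top 6% of scores in each library was an alternative. Shares were computed after thinning each cell to 5000 UMIs, with Clopper-Pearson intervals. The upper limit beside a count of 0 is what 3 counts would give. Total UMIs per library ranged from 173564399 to 209357877, and UMI intervals cover counting error only.

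All 10 members are named. Of each list, the 4 genes with the highest ratio among those called are named in the gate described, and other names were chosen after their values were seen. The 5 genes most like a member were taken among genes with 200 UMIs or more, without gate markers. The members, lists and tests were chosen with earlier results of these data known. The 2-fold call was tested on simulated counts of goblet against enterocyte cells with 15135 genes in the step, where 50 of 50 genes planted at a log2 change of -2, 47 of 50 at -1.5, 50 of 50 at 1.5 and 50 of 50 at 2 were called, and 0 of 14935 unchanged genes. The planted genes had at least 10 CPM in enterocytes, and the simulated libraries differed by Poisson counting error alone. The simulation therefore does not cover changes in genes as low in enterocytes as Atoh1 or Spdef. Nor does it cover real differences between libraries, or the Paneth and tuft calls, which rest on fewer libraries. Alternatives changed the depth and mitochondrial limits, the gate limits, doublets, the CPM total, the fold, the thinning and the libraries used. Python 3.11.15 was used with numpy 2.4.6, scipy 1.17.1 and pandas 2.3.3.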

Additional observations from a re-analysis of the deposited data

How the results depend on the processing

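Of 284 values recomputed for 32 results, 255 stayed within the spread between libraries or within 1.5 times the count, and 29 moved. Only the log2 ratios could change direction, and 0 did, since levels, shares and counts cannot be negative. No paired analysis was possible because the barcode numbers are not tied to samples. Doubling the gate limits gave medians of 214 CPM for Atoh1 in goblet cells and 47.9 CPM for Notch1 in stem cells, and thinned shares of 62.2% for Atoh1 in goblet and 48.0% for Hes1 in stem cells. Leaving out the top 6% of doublet scores gave 235 CPM for Atoh1, 178 CPM for Spdef and 19.9 CPM for Gfi1 in goblet cells, and shares of 64.2% for Atoh1 in goblet and 45.0% for Hes1 in stem cells. A mitochondrial limit of 15% gave a share of 41.9% for Hes1 in stem cells. Leaving mitochondrial and marker genes out of the total raised goblet medians to 335 (Atoh1), 235 (Spdef), 29.7 (Gfi1) and 69.9 CPM (Dll1), enteroendocrine medians to 735 (Neurod1), 420.2 (Sox4) and 44.8 CPM (Dll4), and stem medians to 170.4 (Hes1) and 45.9 CPM (Notch1), since the same UMIs are divided by a smaller total. At 4-fold, 2 members were called above enterocytes in stem cells, 2 in cycling and 3 in Paneth cells, and 1 target or antagonist in stem cells, as a stricter limit must give fewer. The share of all genes called at 4-fold was not computed, so these counts cannot be set against a background. Thinning to 2000 UMIs lowered the shares by construction, to 31.7% for Atoh1 and 28.1% for Spdef in goblet cells, 63.9% for Neurod1 in enteroendocrine cells and 27.9% for Hes1 and 29.7% for Sox4 in stem cells. Leaving out 1 library at a time gave 15 to 25 cells with Neurog3 outside the enteroendocrine gate, against 28 with all libraries. The tuft comparison rests on library 1 and has no value without it. The cause of the other moves was not tested. Few cells limit the tuft and Paneth values and those of cells with Neurog3, and no diet comparison could be made.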

Other observations

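Outside the described comparisons, Ascl2, a stem cell factor, was at 65.5, 62.9, 66.5 and 110 CPM in the stem gate of libraries 1 to 4. Sox9, a factor of crypt cells, was at 151, 157, 138 and 142 CPM there and at 2.22 to 3.96 CPM in enterocytes. In the tuft gate, Pou2f3, the factor of tuft cell identity, was at 155, 83.5, 145 and 114 CPM and Gfi1b, a paralog of Gfi1, at 118, 67.8, 106 and 69.9 CPM, although only library 1 held 20 tuft cells or more.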
